A study of Mus musculus with 6 samples.

Results

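The clustered histone genes of mouse small-intestinal crypt cells were taken as every gene symbol in the deposited count tables that starts with Hist1h, Hist2h, Hist3h or Hist4h. There were 64 of them among 19178 symbols: 6 genes for the linker histone H1, 18 for H2A, 16 for H2B, 11 for H3 and 13 for H4. The cells came from freshly isolated crypts of 10-week-old C57BL6 mice, profiled by Drop-seq, a droplet method that captures polyadenylated RNA and counts each molecule once by its molecular identifier (UMI), near its 3′ end. Collections labelled Ptger4 flox carry the floxed allele of Ptger4, which encodes the prostaglandin E2 receptor EP4, and collections labelled Ptger4 epithelial knock-out have the gene ablated in the epithelium. Each genotype has 3 Drop-seq collections from 2 biological replicates, and neither group was treated. The labels name no Cre driver, no deleted exon and no number of mice in a biological replicate. The codes V1A and V1B were read here as biological replicate 1 and V2 as biological replicate 2 of the knockout, with F1A, F1B and F2 read likewise for flox.

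Clustered histone genes encode the bulk of the histones that package newly made DNA. They lie in dense arrays, lack introns in most cases, and are transcribed mainly while DNA is replicated. Their typical messenger RNA ends in a short stem-loop bound by the stem-loop binding protein Slbp, in place of a poly(A) tail. Some members also give polyadenylated transcripts, which are known from differentiated cells that no longer divide. A method that captures poly(A) therefore counts only the polyadenylated or otherwise captured part of these RNAs, and that part is not known here. In crypts, stem and transit-amplifying cells divide while enterocytes and secretory cells have largely left the cell cycle.

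Cells were barcodes with at least 300 genes and at most 25% of counts from mitochondrial genes, which kept 4890 of 13191 barcodes. Kept cells held between 1028412 and 3020164 counts per collection, with medians of 1070 to 1471.5 counts per cell. Of the kept barcodes, 53 occurred in more than 1 collection, and such cells held between 7.87% and 16% of a collection's kept counts. The sharing split the collections into 1 set of knockout 1, flox 1 and flox 2 and another of knockout 2, knockout 3 and flox 3. Biological replicate 1 of the knockout, as read here, thus spans both sets, while that of flox lies in the first. Sums per biological replicate are therefore not balanced over the sets. Xist, the RNA of the inactive X chromosome, had 1457 counts in flox 3 and 1584 in knockout 3, and at most 11 in each of the others. Ptger4 itself was not lower in the collections labelled knockout, at 17.4, 19.1 and 24.5 UMIs per 1000000 kept UMIs (CPM) against 11.9, 13.6 and 15.1 in flox. Its counts, 26, 26 and 59 against 36, 14 and 32, come from the 3′ end, and since the deleted part is not given they do not check the labels.

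The letters at the ends of the transcripts are shown first, because they set the members apart from nearly all other genes. A stem-loop of 16 bases, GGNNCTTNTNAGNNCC with the stem positions paired, was present in an annotated transcript of 44 of the 64 members and of 55 of 21877 protein-coding genes (0.251%; GENCODE M21, GRCm38). Sites from members that the results return to are given 5′ to 3′ on the transcript's strand, with the stem-loop in capitals and 5 bases on each side.

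Hist1h1e: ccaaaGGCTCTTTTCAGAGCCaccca
Hist1h1c: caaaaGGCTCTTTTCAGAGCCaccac
Hist1h2ae: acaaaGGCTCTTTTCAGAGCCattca
Hist1h2ac: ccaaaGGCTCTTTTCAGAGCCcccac
Hist1h2bj: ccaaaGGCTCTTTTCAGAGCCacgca
Hist1h3c: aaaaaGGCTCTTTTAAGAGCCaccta
Hist1h3e: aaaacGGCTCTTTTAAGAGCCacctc
Hist1h4i: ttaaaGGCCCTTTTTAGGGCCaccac
Hist1h4c: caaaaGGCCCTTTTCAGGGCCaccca

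The capitals differ by histone type. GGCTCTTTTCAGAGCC occurred in 3 H1, 9 H2A, 8 H2B and 4 H3 genes, and in no H4 gene. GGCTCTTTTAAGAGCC occurred in 1 H1, 2 H2B and 3 H3 genes, Hist1h3c and Hist1h3e among them. Among H4 genes 7 had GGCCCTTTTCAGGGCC and 2 had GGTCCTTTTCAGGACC. The stem-loops stand on GRCm38 at chr13:23621782-23621797 (minus strand) for Hist1h1e, at chr13:23739512-23739527 (plus) for Hist1h1c and at chr13:23745047-23745062 (minus) for Hist1h3c, each inside the gene's single exon.

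Annotated transcripts often ran on past this point. In Hist1h1c the transcript ended 840 bases after the stem-loop, in Hist1h1e 1153 bases after it and in Hist1h2ac 2010 bases after it, while in Hist1h2bj it ended 23 bases after it. In all, the transcripts of 22 members ran more than 100 bases past the stem-loop, and 15 members had a polyadenylation hexamer (AATAAA or ATTAAA) in the last 40 bases. The 2 members with the highest counts per kilobase of annotated exon, Hist1h2bc and Hist1h1b, had no match in their annotated transcripts. Hist1h2bc differs from the typical gene in another way: its annotated transcript has 2 exons and spans chr13:23684199-23692908.

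Of the members, 53 belong to the Hist1 array, all on chr13, 8 to Hist2 on chr3, 2 to Hist3 on chr11 and 1 to Hist4 on chr6, and 63 are annotated as protein coding. Kept cells held 10450 UMIs of members. H2B genes took 37.0% of them, H1 24.0%, H2A 20.4%, H4 10.2% and H3 8.49%. As levels, H2B stood at 333 ± 28.5 CPM, H1 at 214 ± 65.5, H2A at 186 ± 35, H4 at 90.5 ± 20.4 and H3 at 74.4 ± 17.0 (mean ± SD, n = 6 collections).

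A single gene carried most of the H2B signal. Hist1h2bc, which encodes a canonical H2B, had 3006 UMIs in 1437 cells, 28.8% of all member counts. Its level was 279, 243 and 262 CPM in flox and 238, 244 and 278 CPM in knockout. The 2 groups overlapped, and the gene also ranked first per kilobase of annotated exon. Next by counts came Hist1h1e with 1209 UMIs, Hist1h1b with 516, Hist1h1c with 468, Hist1h2ae with 452 and Hist1h2ac with 412. The other end of the list was sparse: 22 members had at least 100 UMIs, 5 had fewer than 10, and 55 were seen in all 6 collections. The genes are near copies of each other, and 30 members have fewer than 50% of their 50-base stretches unique among annotated transcripts. For these, and for 23 members that overlap an exon of another gene, the split of reads between genes is uncertain. Hist1h1e overlaps Hist1h2be on the same strand, and Hist1h2ac, Hist1h2ae and Hist3h2a overlap other annotated genes.

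**Figure D1:**
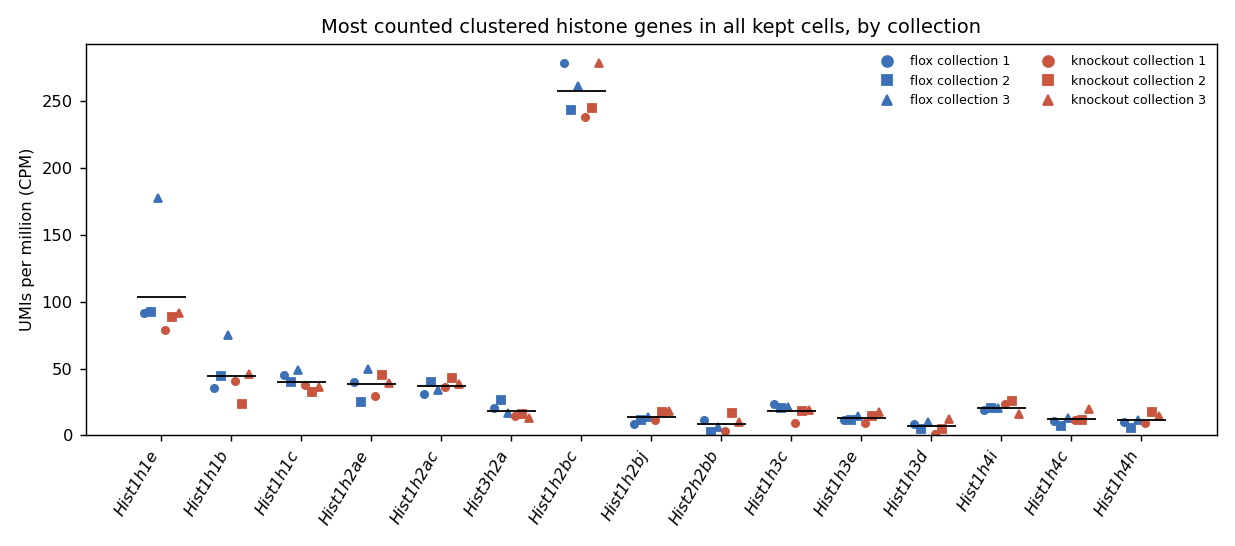
Levels (y axis, CPM) of the 3 most counted clustered histone genes of each type (x axis) in each of 6 collections, with circles, squares and triangles for collections 1, 2 and 3, flox in blue and knockout in red, and a line at the mean. Hist1h2bc sits between 238 and 279 CPM in every collection, and flox collection 3 stands above the others for Hist1h1e (178 CPM) and Hist1h1b (75.4 CPM).

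No member passed the test between genotypes. Over all kept cells the members summed to 877, 765 and 1046 CPM in flox and to 760, 970 and 969 CPM in knockout, so the groups overlapped. The test compared counts summed per biological replicate, 2 against 2, with edgeR's quasi-likelihood test and Benjamini-Hochberg adjustment over all genes. A filter on low counts left 48 of the 64 members among 10555 genes, and 0 of them were called at an adjusted p of 0.05, beside 0.00947% of all genes (1 gene). At an unadjusted p under 0.05 there were 3 members, and DESeq2 also called 0. Without the filter all 64 were tested and 0 were called, beside 0.187% of all genes. The members' median log2 fold change, knockout against flox, was then 0.25, beside 0.01 over all genes.

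The 3 members with the smallest unadjusted p are given as values, since none passed. Hist1h2ak, an H2A gene, stood at 11.6, 10.7 and 15.1 CPM in flox and at 11.4, 46.3 and 17.0 CPM in knockout. Only knockout 2 was high, and the groups overlapped. Its log2 fold change was 0.85 (SE 0.32, unadjusted p = 0.0187, adjusted p = 0.9996 by edgeR's quasi-likelihood test). Hist1h2bg, an H2B gene with 50 UMIs in all, had 2.98, 2.92 and 1.89 CPM in flox and 6.03, 7.34 and 6.22 CPM in knockout. Every knockout collection was above every flox collection, and the log2 fold change of 1.37 (SE 0.54, adjusted p = 0.9996 by edgeR) did not pass. Hist1h1e, a linker histone gene, stood at 91.7, 92.4 and 178 CPM in flox and at 79.1, 88.8 and 91.6 CPM in knockout. Flox 3 was high and the other 5 lay between 79.1 and 92.4 CPM. The log2 fold change was -0.57 (SE 0.26, adjusted p = 0.9996 by edgeR). Without flox biological replicate 1, Hist1h1e alone was called, at -0.999 (edgeR adjusted p = 0.0238).

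Hist1h2bc had a log2 fold change of 0.00 (SE 0.18). Changes were simulated for the contrast over all kept cells, in 10307 genes at these depths. Of genes changed by a log2 fold change of 2, 91.4% were recovered, and of those changed by 1, 41.2%. The changed genes were drawn from all genes past the filter on low counts. The shares are therefore not those of the members, of which 22 had at least 100 UMIs over all kept cells. The same contrast inside groups of cells also called 0 members. In stem cell-like cells 19 members could be tested and 0 were called, beside 0.0139% of genes. The smallest p there again belonged to Hist1h2ak, with a log2 fold change of 1.41 (edgeR's adjusted p = 0.91, SE 0.47). In that class, leaving out knockout collection 3 gave 1 call, Hist1h2ak at 1.86 (edgeR adjusted p = 0.0139), and leaving out flox biological replicate 1 gave 1, Hist1h1b at -1.46 (edgeR adjusted p = 0.031). In enterocyte-like cells 3 members were tested and 0 called, beside 0.136% of genes, with Hist1h1c at -1.03 (edgeR's adjusted p = 0.546, SE 0.33). Goblet-like cells gave 0 of 5 (0.0157% of genes called) and cycling-like cells 0 of 4 (0.087%). At an unadjusted p under 0.05 there was 1 member in stem cell-like, 1 in enterocyte-like and 0 in both other classes, and DESeq2 called 0 in each.

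The link to the cell cycle was read from 2 lists of genes that hold no histone gene. The S list has 57 genes of DNA replication, such as Mcm2, Pcna and Rrm2, and the G2/M list 50 genes (47 of them in the tables) of late interphase and mitosis, such as Cdk1, Ccnb1 and Top2a. Cells with at least 500 UMIs were thinned to 500. Cells with at least 2 S-list UMIs, and more of them than of the G2/M list, form the S range, and the G2/M range is defined likewise. Cells with 0 UMIs of both lists form the non-cycling range. These are ranges of a score, not cell types. They held 811, 1358 and 1290 cells, with median depths of 1319, 1463 and 1353 UMIs.

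Clustered histone RNA was lowest in non-cycling cells and highest in the G2/M range. The members summed to 487 to 650 CPM over the 6 collections in the non-cycling range (median 622), to 540 to 1067 in the S range (median 836) and to 1132 to 1504 in the G2/M range (median 1269.9). The G2/M range was above both others in 6 of 6 collections and overlapped neither. The S range was above the non-cycling range in 6 of 6 collections, but the ranges of values overlapped. Without Hist1h2bc, the most counted member, the others summed to 204 to 293 CPM in the non-cycling range, 427 to 861 in the S range and 939.8 to 1341 in the G2/M range, and the 3 ranges did not overlap. In cells thinned to equal depth, a member UMI was seen in 23.6% of non-cycling cells (95% exact binomial interval 21.3 to 26.1%), 28.0% of S-range cells (24.9 to 31.2%) and 44.7% of G2/M-range cells (42.0 to 47.4%). Unthinned, the shares were 50.9%, 56.0% and 75.8%. These intervals cover counting error only.

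Summed by type, the histone genes did not share 1 pattern. H1 had a mean of 90.4 CPM in non-cycling cells, 218 in the S range and 357 in the G2/M range. H2A had 66.4, 211 and 316 CPM, H3 17.5, 68.7 and 144 CPM, and H4 45.1, 88.1 and 148 CPM in the same order. H2B as a sum did not. It stood at 372 CPM in non-cycling cells, 239 in the S range and 324 in the G2/M range. The sum was lower in S than in non-cycling cells in 6 of 6 collections. Most of it was Hist1h2bc, which alone averaged 349, 166 and 191 CPM in the same order. The H2B sum therefore does not describe the other H2B genes.

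The S range was compared with the non-cycling range within biological replicates, on 12 sums from 4 replicates. A filter on low counts keeps a sparse member only if it is high in some range, so the counts here come from the fit of all 64 members without the filter. Of them 26 were higher in the S range, beside 10.5% of all 18009 genes, and 2 were lower, beside 11.2%. By type, 4 of 6 H1 genes, 10 of 18 H2A, 4 of 16 H2B, 5 of 11 H3 and 3 of 13 H4 were higher. The lower ones were Hist1h2bc and Hist1h1c. The median log2 fold change of the members was 1.57, or 1.54 with 7 members that had no count in non-cycling cells put at their lower bound and 4 others without one left out, beside -0.01 over all genes. Fold changes named from here on come from the fit of the 21 members that passed the filter, and every adjusted p is from edgeR's quasi-likelihood test.

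The linker histones split. Hist1h1b, the H1.5 gene of dividing cells, had 4.42 to 11.9 CPM in non-cycling cells (median 6.63), 31.6 to 108 in the S range (median 49.999) and 42.5 to 143 in the G2/M range (median 82.3). All S and G2/M values were above all non-cycling values. Its log2 fold change in S was 2.94 (edgeR's adjusted p = 2.58e-08, SE 0.32). Hist1h1e, the H1.4 gene, had 14.3 to 70.4 CPM in non-cycling cells (median 36.3), 77.4 to 181 in S (median 107) and 142 to 324 in G2/M (median 157). Here too non-cycling values did not overlap the others, and the log2 fold change in S was 1.57 (edgeR's adjusted p = 6.85e-08, SE 0.18). Hist1h1c, the H1.2 gene, went the other way in S, with 32.9 to 54.5 CPM in non-cycling cells (median 40.7) and 14.1 to 34.4 in S (median 18.2). Its log2 fold change was -0.997 (edgeR's adjusted p = 0.00323, SE 0.27). Hist1h1a, the H1.1 gene, rose in S by 2.91 (edgeR's adjusted p = 0.0014, SE 0.74). In the G2/M range Hist1h1c was back at 16.1 to 51.8 CPM (median 40.3), and its difference from non-cycling cells did not pass the test (-0.10, SE 0.21).

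Hist1h2bc held most of the H2B counts. It had 257 to 412 CPM in non-cycling cells (median 347), 113 to 206 in the S range (median 176) and 163 to 220 in the G2/M range (median 192). Every non-cycling value was above every value of both other ranges. The log2 fold changes were -1.10 in S (edgeR's adjusted p = 7.99e-08, SE 0.13) and -1.01 in G2/M (edgeR's adjusted p = 6.97e-08, SE 0.12). Another H2B gene, Hist1h2bj, did the opposite, with 1.47 to 7.13 CPM in non-cycling cells, 9.82 to 25.3 in S and 12 to 35 in G2/M, and a log2 fold change in S of 1.97 (edgeR's adjusted p = 0.00148, SE 0.49). Hist2h2bb, from the chr3 array, did not pass the filter on low counts and had 0 to 4.42 CPM in non-cycling cells, 0 to 20.03 in S and 4.01 to 29.99 in G2/M.

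**Figure D2:**
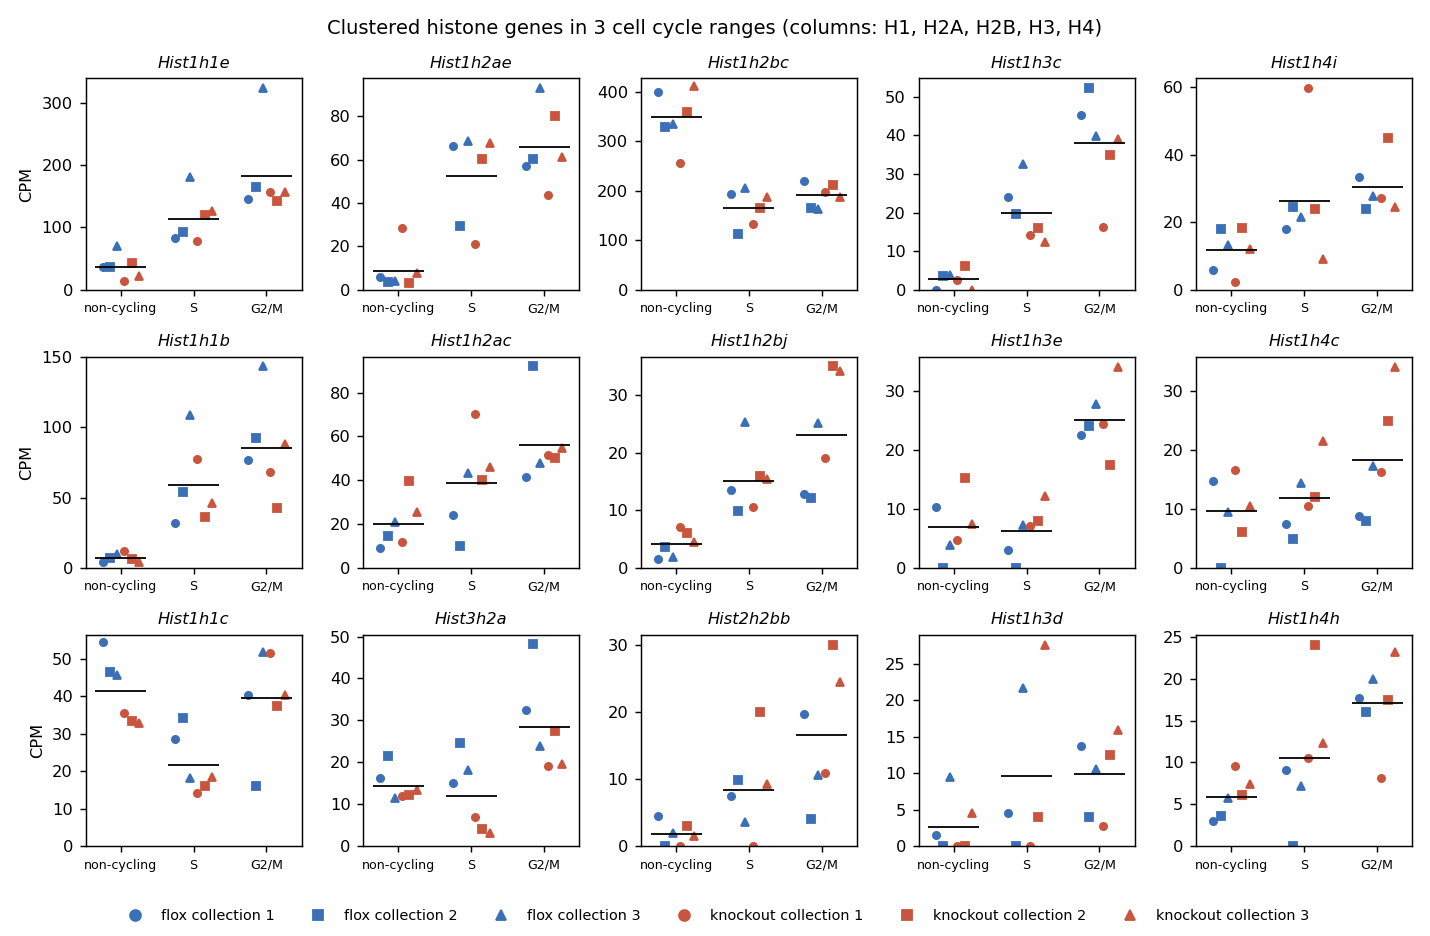
Levels (y axis, CPM, a scale for each gene) of the 3 most counted members of each histone type in cells of the non-cycling, S and G2/M ranges (x axis), 1 column of panels per histone type, 1 point per collection (circles, squares and triangles for collections 1, 2 and 3, flox blue, knockout red) and a line at the mean. Hist1h2bc is highest in non-cycling cells (257 to 412 CPM), while Hist1h1e, Hist1h1b and Hist1h3c are highest in the G2/M range.

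Among H2A genes, Hist1h2ae had 3.05 to 28.5 CPM in non-cycling cells (median 4.85), 21.1 to 68.7 in S (median 63.1) and 43.5 to 92.9 in G2/M (median 60.6). One knockout value made the non-cycling and S ranges overlap, and the log2 fold change in S was 2.63 (edgeR's adjusted p = 3.79e-07, SE 0.33). Other H2A genes rose in S as well: Hist1h2ai by 2.503, Hist1h2ak by 2.42, Hist1h2ab by 2.30 and Hist1h2ag by 2.22 on the log2 scale, all past the threshold. These share long stretches of sequence, so their counts may not be separate. Hist1h2ac rose by 0.93 (edgeR's adjusted p = 0.00873, SE 0.28), a call that was lost under 6 of 22 alternatives. Hist3h2a, from the chr11 array, had a log2 fold change of -0.40 in S, which did not pass. Hist1h2ac was at 0.63 without knockout collection 1 (edgeR's adjusted p = 0.109) and at 0.84 without flox collection 1 (edgeR's adjusted p = 0.0576).

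H3 and H4 genes are the sparsest here. Hist1h3c had 0 to 6.10 CPM in non-cycling cells (median 2.98), 12.3 to 32.5 in S (median 17.8) and 16.3 to 52.2 in G2/M (median 39.4). The non-cycling values lay below all the others. The log2 fold changes of 3.11 in S (edgeR's adjusted p = 2.89e-05, SE 0.55) and 3.97 in G2/M (edgeR's adjusted p = 3.35e-08, SE 0.44) were the largest of the 21 members that passed the filter. In the fit without the filter some sparse members had larger ones, such as Hist1h2ah (5.33 and 5.86) and Hist1h2bk (4.14 and 5.58). Hist1h4i rose in S by 1.06 (edgeR's adjusted p = 0.0168, SE 0.36), a call lost under 7 of 21 alternatives, among them those without knockout collection 1 (0.50, edgeR's adjusted p = 0.274) or flox collection 1 (0.96, edgeR's adjusted p = 0.0622), while Hist1h4c (0.12) and Hist1h4h (0.80) did not pass. Hist1h3d, below the filter on low counts, had 0 to 9.51 CPM in non-cycling cells, 0 to 27.6 in S and 2.72 to 15.9 in G2/M, so all 3 ranges overlapped.

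In the G2/M range 43 of the 64 members were higher than in non-cycling cells, beside 10.8% of all genes, and 1 was lower, beside 10.6%. Higher were 4 of 6 H1, 12 of 18 H2A, 10 of 16 H2B, 9 of 11 H3 and 8 of 13 H4 genes, and the lower one was Hist1h2bc. The members' median log2 fold change was 2.39, or 2.25 with 9 members at their lower bound and 2 left out, beside 0.03 over all genes. In the 1290 non-cycling cells 11 members had no UMI. Against a floor of 3 counts over that group, Hist1h2af was at least 10.5-fold higher in the G2/M range, Hist1h3b at least 10.2-fold, Hist1h2ah at least 9.92-fold and Hist1h2bk at least 8.05-fold. Among named members Hist1h1b rose by 3.502 (SE 0.27), Hist1h2ae by 2.80 (SE 0.30) and Hist1h1e by 2.19 (SE 0.15) on the log2 scale. The linker histone genes Hist1h1a (3.34) and Hist1h1d (3.17), the H2A genes Hist1h2ab (3.18) and Hist1h2ak (3.07) and the H4 gene Hist1h4d (2.81) rose in G2/M as well, all past the threshold. Hist1h4i rose by 1.37 and Hist1h4h by 1.503, while Hist1h4c at 0.68 did not pass (edgeR's adjusted p = 0.103).

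**Figure D3:**
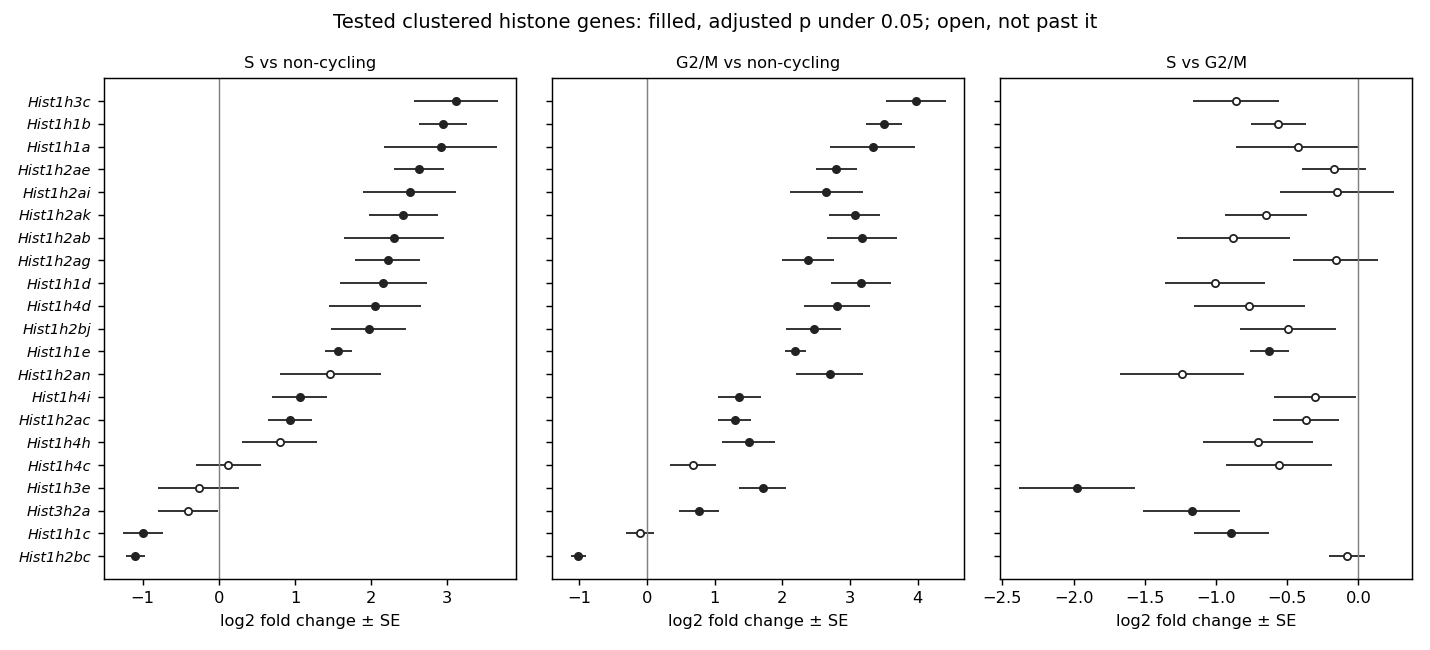
Log2 fold changes ± SE (x axis) of the 21 clustered histone genes that passed the filter on low counts (y axis), for S against non-cycling, G2/M against non-cycling and S against G2/M, with filled points for adjusted p under 0.05 by edgeR. Hist1h2bc lies left of 0 in both comparisons with non-cycling cells (-1.10 and -1.01), and Hist1h3e at -1.98 is farthest from 0 in the third panel.

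Set against each other, the S and G2/M ranges share samples with the comparisons above. Without a filter, 0 members were higher in S, beside 1.33% of all genes, and 8 were lower, beside 1.43%. They were Hist1h1c, Hist1h1d and Hist1h1e, the H2A genes Hist1h2an and Hist3h2a, and the H3 genes Hist1h3c, Hist1h3e and Hist1h3i. With the filter on low counts 4 were lower (2.28% of genes) and 0 higher, while 10 lower and 0 higher had an unadjusted p under 0.05. DESeq2 gave 2 lower and 0 higher. Hist1h3e had 0 to 15.3 CPM in non-cycling cells (median 6.11), 0 to 12.3 in S (median 7.13) and 17.5 to 34.2 in G2/M (median 24.3). Its G2/M values overlapped neither other range, and it was lower in S than in G2/M by a log2 fold change of -1.98 (edgeR's adjusted p = 0.00267, SE 0.41). Without flox biological replicate 1 that call was lost (-1.56, edgeR's adjusted p = 0.0699). Hist1h1e followed at -0.63 (edgeR's adjusted p = 0.00526, SE 0.14), a call lost under 5 of 22 alternatives. The calls of Hist3h2a (-1.17, with edgeR's adjusted p = 0.0385, SE 0.34) and Hist1h1c (-0.89, with edgeR's adjusted p = 0.0405, SE 0.26) were lost under 17 of 20 and 16 of 21 alternatives. Without the replicate block 1 member was called.

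The cells of the ranges differ in kind, and this was not separated from phase. Stem cell-like and cycling-like cells made up 3.18% of the non-cycling range, 52.9% of the S range and 41.6% of the G2/M range, while enterocyte-like and goblet-like cells made up 43.6%, 7.64% and 14.6%. Within stem cell-like and cycling-like cells alone only 41 cells were non-cycling, and 0 members were called in either comparison with them. Fewer genes could be tested in these classes, so this 0 does not tell an absent difference from an unseen one. There Hist1h1b had log2 fold changes of 2.68 in S (edgeR's adjusted p = 0.256) and 3.29 in G2/M (edgeR's adjusted p = 0.0598), Hist1h1e 0.63 and 1.22, Hist1h2ae 1.31 and 1.57, and Hist1h2bc -0.65 and -0.55. Leaving out the barcodes shared between collections, an alternative added after the data were seen, gave log2 fold changes in S of -1.199 for Hist1h2bc, 2.995 for Hist1h1b and 1.53 for Hist1h1e, all past the threshold, and genotype counts of 0 in every contrast. It lost the S calls of Hist1h2ac (edgeR's adjusted p = 0.0582) and Hist1h4i (0.0536) and the G2/M call of Hist3h2a (0.0588). In S against G2/M it lost Hist1h1c (0.0861) and Hist3h2a (0.0747) and gained Hist1h1b (0.0462). Hist1h4c gained a call in G2/M against non-cycling cells (0.0468).

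A split by both lists at once, added after the data were seen, placed the highest sums of all members with G2/M-list UMIs. Cells with at least 2 S-list UMIs and 0 G2/M-list UMIs (355 cells) had 585 CPM of members, pooled over collections, against 603 in cells with none of either. Cells with at least 2 G2/M-list UMIs had 1170 CPM when they had no S-list UMI (488 cells) and 1407 CPM when they had at least 2 (782 cells). These sums include Hist1h2bc and were not taken without it. In the S and non-cycling ranges Hist1h2bc averaged 166 and 349 CPM, and the other members together 659 and 242 CPM. The near-equal 585 and 603 CPM are therefore not values of the other members. The split is a description with no test.

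**Figure D4:**
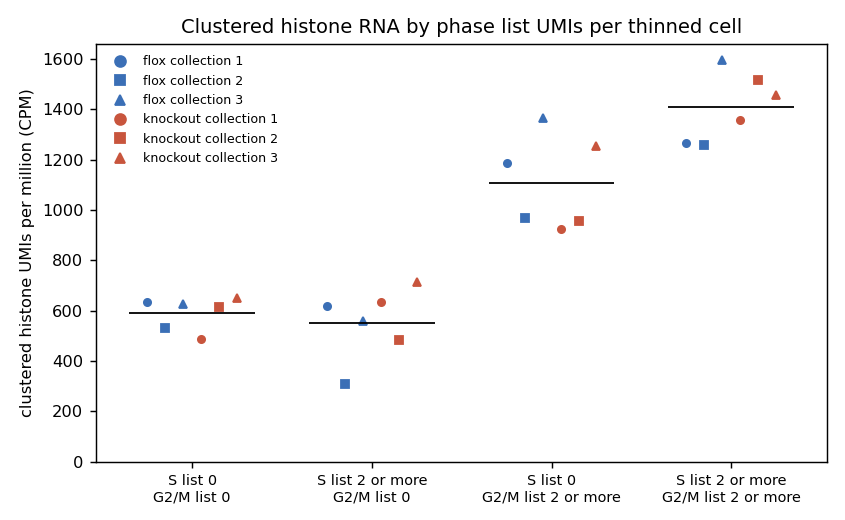
Summed level of all clustered histone genes (y axis, CPM) in cells grouped by the UMIs of the S and G2/M lists after thinning (x axis), 1 point per collection (circles, squares and triangles for collections 1, 2 and 3, flox blue, knockout red) and a line at the mean. Both groups with at least 2 G2/M-list UMIs lie above both groups with none, in every collection.

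The step from non-cycling cells to the S range was also compared between genotypes. Of 21 members tested 0 differed, beside 0% of genes, and 3 had an unadjusted p under 0.05. The smallest was that of Hist1h1e, whose step was larger in knockout by 0.84 on the log2 scale (edgeR's adjusted p = 0.867, SE 0.35). In S-range cells alone 6 members were tested between genotypes and 0 called (0.0524% of genes), and in G2/M-range cells 30 were tested and 0 called (0.064%). DESeq2 called 0 in all 3 of these contrasts, and 1 member in S-range and 3 in G2/M-range cells had an unadjusted p under 0.05. Hist1h2ak had the smallest p in S-range cells, with a log2 fold change of 1.94 (edgeR's adjusted p = 0.723, SE 0.64).

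Cell classes were taken from clusters built without the clustered histone genes, named as X-like by their markers. Replacement histone genes were not left out of the clustering, and Cenpa is among the cycling markers. As the clusters come from these same cells, the levels are described and not tested. All members together stood at 801 to 1925 CPM in cycling-like cells (205 cells, median 1454) and at 620 to 1226 in stem cell-like cells (1052 cells, median 963). Of the stem cell-like cells, 455 formed a cluster with 4 of 18 stem cell markers enriched, led by Olfm4 but also by the replication genes Uhrf1, Mcm3 and Hells, so the name is less sure there. At a Leiden resolution of 0.5 a cluster of 709 cells with 2 of the 18 enriched stayed unnamed, and the 696 cells then called stem cell-like had 535 to 1183 CPM of members. No cluster was named cycling-like at that resolution. The top genes of the 696 cells included Cdk1, Pbk and Ube2c beside Olfm4 and Lgr5, so that class also took in dividing cells. Goblet-like cells (725) had 631 to 832 CPM, enterocyte-like cells (461) 524 to 1012 and T or NK cell-like cells (152) 55.3 to 742. The unnamed clusters held 1790 cells at 856 to 1151 CPM, and the largest of them, 911 cells, was led by Gm26917 and small noncoding RNAs.

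Single members ordered the classes differently. Hist1h2bc had its highest median in enterocyte-like cells, at 356 to 668 CPM (median 525). The unnamed clusters together had 258 to 347 (median 306), goblet-like cells 221 to 310 (median 267), cycling-like cells 103 to 258 (median 203), enteroendocrine-like cells 129 to 313 (median 189) and stem cell-like cells 98.6 to 169 (median 147). The small Paneth-like (122 cells, 45.2 to 603 CPM) and tuft-like classes (52 cells, 0 to 392 CPM) spread too widely to be placed. Enterocyte-like values lay above all stem cell-like and goblet-like values, while cycling-like and stem cell-like values overlapped. At equal depth, a Hist1h2bc UMI was seen in 23.6% of enterocyte-like cells (95% exact binomial interval 19.8 to 27.8%), 12.1% of unnamed, 11.5% of enteroendocrine-like, 11.01% of Paneth-like, 9.62% of goblet-like (7.55 to 12.03%), 6.82% of stem cell-like (5.34 to 8.55%) and 2.21% of T or NK cell-like cells (0.457 to 6.31%). Unthinned, the shares in enterocyte-like, goblet-like, stem cell-like and T or NK cell-like cells were 58.6%, 36.6%, 24.0% and 4.61%, at median depths of 1846, 1736, 1729.5 and 788.5 UMIs. Hist1h1c stood at 20.2 to 167 CPM in enterocyte-like cells (median 94.2), 39.99 to 70.1 in goblet-like cells (median 52.6) and 19.2 to 34.3 in stem cell-like cells (median 23.6). Its enterocyte-like values were 126, 167 and 114 CPM in flox and 74.6, 20.2 and 68.0 in knockout, so the genotypes did not overlap there, although the contrast did not pass the test.

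Hist1h1b had another order, with 46.0 to 151 CPM in cycling-like cells (median 66.4), 26.5 to 161 in stem cell-like cells (median 54.0), 14.7 to 38.1 in goblet-like cells (median 30.9) and 0 to 10.4 in enterocyte-like cells. Cycling-like and stem cell-like values overlapped, and enterocyte-like values lay below all of them. Hist1h1e had 142 to 423 CPM in cycling-like and 15.1 to 71.7 in enterocyte-like cells. By type, H3 averaged 126 CPM in cycling-like, 97.5 in stem cell-like, 53.9 in goblet-like and 10.1 in enterocyte-like cells. H2B averaged 302, 227, 316 and 519 CPM in the same classes. Of these sums, Hist1h2bc alone held 193, 141, 262 and 508 CPM, so they do not give the order of the other H2B genes.

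**Figure D5:**
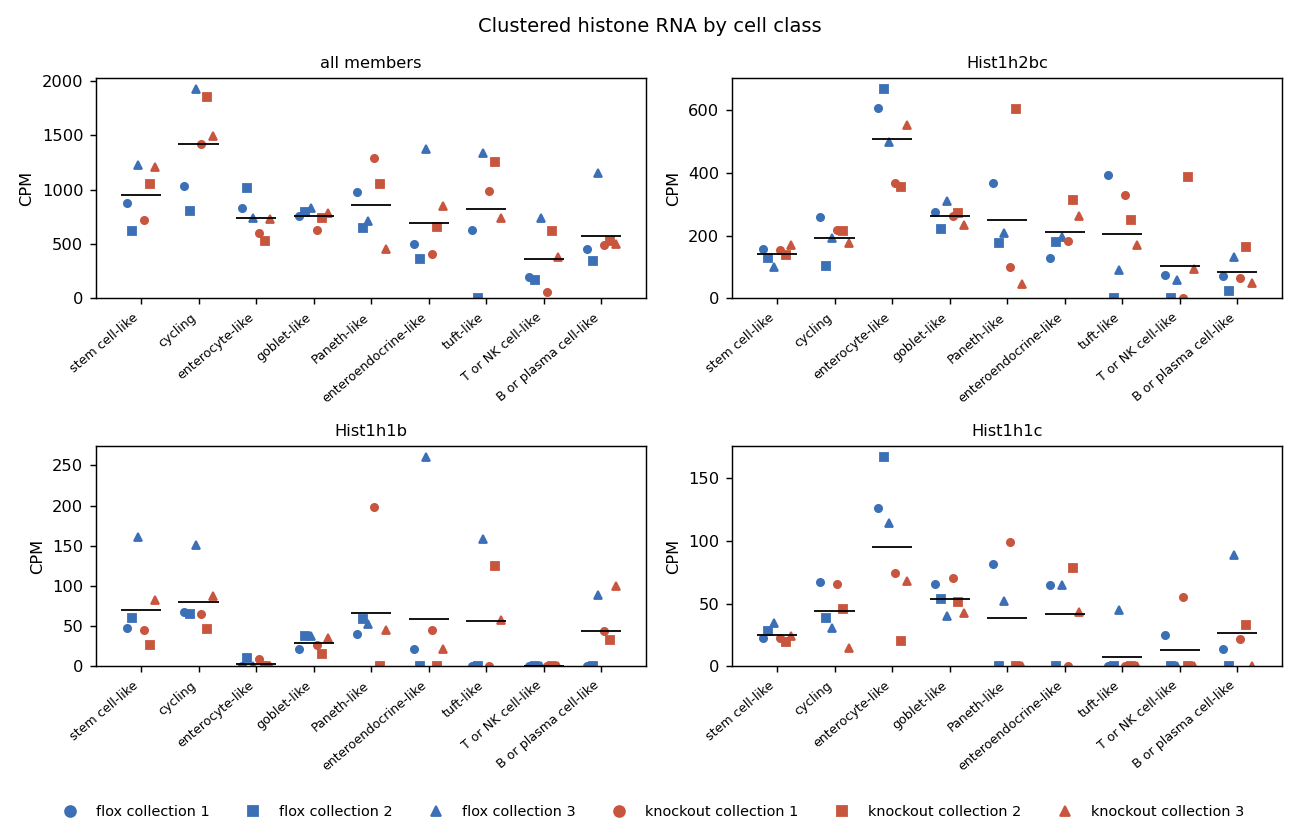
Levels (y axis, CPM) of all clustered histone genes together, Hist1h2bc, Hist1h1b and Hist1h1c in 9 cell classes (x axis), 1 point per collection (circles, squares and triangles for collections 1, 2 and 3, flox blue, knockout red) and a line at the mean. Hist1h2bc is highest in enterocyte-like cells (356 to 668 CPM), where Hist1h1b is at 0 to 10.4 CPM.

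The DNA before the start sites is shown because Hist1h2ac and Hist1h2bc, which differed in direction between the ranges, share it. They are transcribed away from each other from a gap of 250 bases, chr13:23683949-23684198. It is 1 of 10 such H2A and H2B pairs with gaps of 175 to 301 bases. In 7 of the 10 pairs both genes were higher in the G2/M range in the fit without a filter. In 1 pair they were called in opposite directions, and that pair was Hist1h2ac with Hist1h2bc: 1.32 and -0.99 on the log2 scale in G2/M, 0.90 and -1.13 in S. The 250 bases before the start of Hist1h2ac (chr13:23683960-23684209, minus strand), of Hist1h2bj (chr13:22042948-22043197, plus), of Hist1h1b (chr13:21780626-21780875, minus) and of Hist1h1c (chr13:23738557-23738806, plus) are printed below from RefSeq on GRCm38.p6. Capitals mark 4 motifs found on either strand. The first is CCAAT, known as a site of NF-Y. The second is the TATA box as TATAAA. The third is the octamer, ATTTGCAT. The last is the H1 box of linker histone genes, AAACACA.

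Hist1h2ac: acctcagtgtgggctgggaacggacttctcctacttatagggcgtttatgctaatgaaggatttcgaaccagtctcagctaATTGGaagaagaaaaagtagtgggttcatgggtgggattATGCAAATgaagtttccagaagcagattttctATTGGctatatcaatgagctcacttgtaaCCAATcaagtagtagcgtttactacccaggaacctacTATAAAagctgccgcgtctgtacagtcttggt
Hist1h2bj: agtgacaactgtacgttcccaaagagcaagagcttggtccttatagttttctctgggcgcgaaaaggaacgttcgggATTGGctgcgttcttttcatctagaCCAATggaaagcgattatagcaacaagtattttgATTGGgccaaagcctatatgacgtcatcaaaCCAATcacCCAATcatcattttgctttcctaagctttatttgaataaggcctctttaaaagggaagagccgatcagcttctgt
Hist1h1b: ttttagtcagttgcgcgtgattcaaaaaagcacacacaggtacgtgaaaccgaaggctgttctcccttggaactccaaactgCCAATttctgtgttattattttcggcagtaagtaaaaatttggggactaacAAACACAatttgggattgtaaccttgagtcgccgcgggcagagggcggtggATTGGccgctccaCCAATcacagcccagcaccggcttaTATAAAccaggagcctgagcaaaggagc
Hist1h1c: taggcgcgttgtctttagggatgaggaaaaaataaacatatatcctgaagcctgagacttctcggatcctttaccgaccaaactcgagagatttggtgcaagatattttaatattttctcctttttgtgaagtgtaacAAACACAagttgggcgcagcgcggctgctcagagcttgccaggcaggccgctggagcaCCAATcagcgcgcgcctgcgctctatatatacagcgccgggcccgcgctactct

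The Hist1h2ac sequence runs back to the start of Hist1h2bc and holds 3 CCAAT matches, 1 TATAAA and 1 octamer. RefSeq entries matched 57 of the 64 members. CCAAT was present before 47 of the 57 (82.5%), against 34.5% of 27025 promoters of the same length, and TATAAA before 28 (49.1% against 12.97%). The octamer, the site known for Oct-1 in H2B genes, stood before 12 members (21.1% against 1.61%), 7 H2A and 5 H2B genes. Where both genes of a divergent H2A and H2B pair were matched, they share much of this sequence. A site can then count for both genes, as the octamers of Hist1h2ae with Hist1h2bg and of Hist1h2ah with Hist1h2bk do. The shares of members are therefore not shares of separate sequences. The H1 box stood before 8 members (14.04% against 6.22%): 5 of 6 H1 genes, 2 H2A genes and 1 H2B gene. CCAAT stood before 3 of 12 matched H4 genes and before every matched H1, H2A and H2B gene. Both Hist1h1b and Hist1h1c hold CCAAT and the H1 box, and were called in opposite directions in S. A match is a description of letters and shows no binding.

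Members were also grouped by how their annotated transcripts end. The 20 members that end within 100 bases of the stem-loop and have no hexamer took 13.9% of member counts, and 16 of them were higher in the G2/M range. Of 15 with a hexamer 7 were higher, of 11 that run on without one 8, and of 18 with no stem-loop in the transcript 12, with 1 lower. Over all 64 members 43 were higher, beside 10.8% of all genes. Median counts per member, in the same order of groups, were 57, 51, 112 and 58 UMIs. The groups thus differ in counts as well, and they were not compared by a test. Genes of each annotated group were thus counted, and how many of their RNAs carried a tail was not measured. Sequence past the annotated ends was not searched, so some of the 18 may have a stem-loop beyond the end of their annotation.

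Many genes of 3 lists tied to histone RNA and protein also differed between the ranges. The list of histone transcription and 3′ processing has 25 genes, of which 3 are in the phase lists and were left out. Of 18 tested, 13 were higher in S than in non-cycling cells and 0 lower (median log2 fold change 1.20, against 0.00 over all genes; 23.4% of tested genes were called higher). The smallest p values belonged to Snrpd1 (1.85), Snrpg (1.497), Snrpe (1.25), Snrpf (1.43) and Snrpd3 (1.08), Sm proteins that serve mainly in splicing particles. The counts of this list therefore include genes that are not particular to histone RNA. Against the G2/M range 9 of the 18 were higher in S, beside 3.42% of genes. Slbp, which binds the stem-loop, was higher in S by 1.06 (edgeR's adjusted p = 0.000646, SE 0.19), and Casp8ap2 (FLASH), a factor of histone RNA processing, by 0.80 (edgeR's adjusted p = 0.00216, SE 0.16). In the same comparison no member was higher in S. Set against non-cycling cells, Npat, Slbp, Casp8ap2 and Eri1 were higher in S in 6 of 6 collections, with no overlap of values. Values overlapped for Lsm10 (higher in S in 5 of 6), Hinfp (4 of 6), Lsm11 (3 of 6) and Zfp473 (0 of 6).

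Of 25 histone chaperones, which carry histones to DNA, 24 were tested and 21 were higher in S than in non-cycling cells, beside 23.4% of tested genes. Npm1 (1.58), Nasp (2.02), Set (1.70), Nap1l1 (2.49) and Chaf1a (3.61, a subunit of the replication-coupled assembly factor CAF-1) had the smallest p. Against G2/M, 8 were higher in S, beside 3.42% of genes, and Hjurp, the chaperone of the centromeric histone Cenpa, was lower (-0.49, with edgeR's adjusted p = 0.00932, SE 0.12).

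Replacement histones, encoded by single genes with introns and ordinary poly(A) tails in most cases, were counted beside them. Of 14 listed, 11 were in the tables and 9 were tested, with 6 higher in S than in non-cycling cells, beside 23.4% of tested genes. H2afz rose by 1.69, H2afx by 1.76 and Cenpa by 1.98 on the log2 scale. H3f3b, an H3.3 gene at 1124 ± 90.1 CPM (SD, n = 6 collections), did not pass in S (0.05, SE 0.08), and neither did the linker histone gene H1f0 (0.06, SE 0.14). H1f0 rose in G2/M by 0.70 (edgeR's adjusted p = 5.74e-05, SE 0.13). In the genotype contrast over all kept cells, 0 genes of these 3 lists were called.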

How the data were processed

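Whole-number UMI counts per gene and barcode were used as deposited, 1 table per collection. STAR 2.6 and mm10 are named in the submitters' processing notes; which annotation and strand setting the counting used is not given in the sources used here. Kept barcodes had at least 300 genes and at most 25% mt- counts. Their counts were summed per biological replicate and tested with edgeR 4.0.16 (R 4.3.3; TMM, filterByExpr with a minimum count of 10, quasi-likelihood test, Benjamini-Hochberg adjustment over all genes, threshold 0.05); phase ranges took biological replicate as a block. CPM are counts per 1000000 kept counts. SE is that of the log2 fold change. Nothing says whether the collections of 1 biological replicate came from separate mice. The labels' collection numbers did not pair the genotypes: same-numbered collections correlated at -0.18, 0.05 and 0.40 over 6549 genes, and the biological replicates of both genotypes at 0.35, with too few pairs to decide.

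Clusters used Leiden (leidenalg 0.10.2, resolution 1, 30 principal components, 2000 variable genes, 15 neighbours) without Hist and mt- genes; naming thresholds were set after the data were seen, and doublets were not removed. Named genes are the 3 most counted members per type, up to 8 called members per direction with the largest fold change in each phase comparison, the 3 smallest p in each genotype contrast, and up to 5 genes per list and direction. Members named by lower bound, by neighbouring start sites or as the full set of a call count were chosen after their values were seen. The same holds for the processing genes given by their number of collections. The members and all lists were chosen with earlier results of these data known. The tests were tried on simulated counts first: in the phase design, over 7686 genes, 99.0% of genes changed by a log2 fold change of 2 and 74.5% of those changed by 1 were recovered. The changed genes were again drawn from all genes past the filter, so these are not shares of the members. DESeq2 1.42.0, other filters, thinning depths, classes and left-out collections were alternatives. Leaving out collection 3 of a genotype and leaving out its biological replicate 2 are the same fit, and both are counted among the alternatives. Stem-loops were searched in GENCODE M21 transcripts; protein sequences and the genome sequence were not used here.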

Additional observations from a re-analysis of the deposited data

How the results depend on the processing

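Counts of called members moved most with the phase comparisons. Of the 21 members that passed the filter on low counts, 14 were higher in S than in non-cycling cells (23.4% of tested genes). That filter keeps a sparse member only if it is high in some range. This count, and those of 18 and 4 below, are therefore not shares of all members. The 14 became 5 with single collections as samples and the collection as replicate block, 26 without a filter on low counts, 7 with cells thinned to 1000 UMIs and 8 to 15 with a collection or biological replicate left out (8 without knockout collection 1 or flox collection 1). The G2/M count of 18 became 5, 43 and 9 under the first 3 of these, 11 at a limit of 10% mt- counts and 12 to 18 with samples left out. Members lower in S than in G2/M numbered 4, but 1 without the replicate block, 2 with collections as samples, 2 by DESeq2, 8 without a filter, 2 at 1000 UMIs, 1 at 10% mt- counts, 2 without immune classes and 1 to 4 with samples left out (1 without flox collection 3 or either flox biological replicate, 2 without knockout collection 2 or 3, knockout biological replicate 2 or flox collection 1). Within stem cell-like and cycling-like cells, 0 were higher and 0 lower in S or in G2/M than in non-cycling cells, where fewer genes could be tested, and 1 was lower in S than in G2/M. Genotype counts of 0 became 0 to 1 over left-out samples in all kept cells and in stem cell-like cells. Where a left-out biological replicate leaves 1 sum in a genotype, that sum is assumed to vary like the others.

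Directions of single genes turned as follows on the log2 scale; the cause was not tested. Between genotypes, Hist1h2ae in S-range cells was 0.21 without shared barcodes. In the first set of collections alone, Hist1h1e was 0.079 in G2/M-range, 0.52 in cycling-like and 0.36 in enterocyte-like cells, and Hist1h2bc 0.089 in goblet-like cells. In the second set, Hist1h2ae was -0.56 in cycling-like and Hist1h2bj -0.18 in stem cell-like cells. In S against non-cycling, Hist1h2ac was -0.98 and Hist1h4i -0.88 within stem cell-like and cycling-like cells (-0.27 and -0.22 in G2/M), and Hist1h3e was 0.014 with at least 3 list UMIs and 0.36 with thinning seed 2. With that seed Hist1h4h was 0.16 in S against G2/M. The genotype difference of the S step of Hist1h1e was -0.037 within the same 2 classes. Left-out samples gave Hist1h2ae -0.59 to 0.093 in S-range cells and -0.77 to 1.30 in cycling-like cells, Hist1h1e -1.07 to 0.10 in G2/M-range and -1.03 to 0.60 in cycling-like cells, Hist1h1b -1.17 to 0.092 in cycling-like and -1.46 to 0.25 in stem cell-like cells, Hist1h2bc -0.57 to 0.00057 in enterocyte-like, Hist1h2ac -0.13 to 0.44 in goblet-like and Hist1h2bj -0.23 to 2.22 in stem cell-like cells. In the phase comparisons they gave Hist1h3e -0.59 to 0.23 and Hist1h4c -0.17 to 0.41 in S against non-cycling, Hist1h1c -0.21 to 0.16 in G2/M against non-cycling and Hist1h2bc -0.20 to 0.046 in S against G2/M. With the collection number, or the biological replicate, as replicate block, every genotype count stayed at 0. Of all values of single genes under alternatives, 1294 kept direction and side of the threshold, 70 lost the call, 14 gained one and 39 turned.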
